A study of Rattus norvegicus with 10 samples.

Results

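The nuclei described here are granule neurons of the rat dentate gyrus in which the summed transcripts of Bdnf, Robo3, Serinc2 and Smad3 led over other marker sets, although few nuclei carried all 4 genes. They were chosen by measured UMIs (unique molecular identifiers, 1 for each captured transcript), in 3 steps. Nuclei with at least 500 UMIs and at most 5% mitochondrial UMIs were kept. Those with at least 1 UMI of Prox1, a transcription factor that marks dentate granule neurons, and at most 1 UMI of Gad1 and Gad2, the GABA-synthesizing enzymes, were taken as granule nuclei. Members had a sum of Bdnf, Robo3, Serinc2 and Smad3 of at least 2 UMIs that also exceeded the sums of 3 other marker sets, those of a Niban3 and Ano2 type, a Ror2 and Itga11 type and a Trabd2b and Deptor type. Of 55401 nuclei kept from 55863 barcodes, 20216 passed as granule nuclei and 5141 of those were members. A further 6837 granule nuclei fell in the other 3 types by the same rule, and 8238 fell in none.

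The series asked how traumatic brain injury (TBI) alters transcription in the dentate gyrus 3 weeks after lateral fluid percussion injury (LFPI), a fluid pulse onto the intact dura, in young adult male Sprague-Dawley rats. snRNA-seq covered the ipsilateral dentate gyrus of 2 TBI rats, 1 sham rat that had every surgical step but the pulse and 1 naïve rat that had no surgery, and bulk RNA-seq covered 3 TBI and 3 sham rats. The sham and the naïve rat were pooled as the control of the nuclei, so surgery was common to the TBI rats and only 1 of the controls. Each rat gave 1 library. Nuclei of each rat were processed individually for the 10x platform, and the sample titles name no batch.

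Granule neurons receive the input of the entorhinal cortex to the hippocampus and pass it on through mossy fibers, and they fire sparsely. Bdnf encodes brain-derived neurotrophic factor, a secreted ligand that signals through the receptor TrkB (gene Ntrk2), is stored in mossy fibers and is transcribed when neurons are active. Robo3 belongs to the Roundabout receptors of axon guidance, Smad3 carries signals of TGF-beta and activin receptors to the nucleus, Serinc2 encodes a multipass membrane protein, and Sorcs3, noted for these nuclei but not used to choose them, encodes a sorting receptor at synapses. In the text below, 4 values in a row are those of TBI rat 1, TBI rat 2, the sham rat and the naïve rat, in that order, and CPM stands for the UMIs of a gene scaled to 1000000 UMIs of the summed nuclei.

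The members numbered 1329, 1202, 1539 and 1071, with a median of 2628, 1928, 2216 and 2899 UMIs per nucleus and 4529935, 2949195, 3907044 and 3778973 UMIs in all. The deepest members reached 51919, 27542, 17758 and 52165 UMIs, and 37, 19, 9 and 21 of them held 10000 UMIs or more. Doublets were not removed, and 302, 189, 187 and 125 members carried 1 Gad1 or Gad2 UMI, the most the rule allows. Between 0 and 3 member barcodes were shared by any pair of libraries. In the deposited matrices some entries are stored with the value 0, and among the members these made up 1.96%, 31.4%, 13.3% and 17.7% of stored entries. The shares were larger in ribosomal protein genes (10.8%, 79.2%, 55.4% and 67.03%) and in mitochondrial genes (12.1%, 84.7%, 64.6% and 82.7%), so that TBI rat 1 stood apart from the other 3 libraries in genes of these kinds. Values were computed with such entries as 0 and again with each as 1 UMI.

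The label of granule neuron was checked against markers that the rule did not use. The summed level of 8 granule markers was 4366, 4798, 4582 and 4754 CPM in the members and 3621, 3608, 3565 and 3670 CPM over all nuclei kept. Slc17a7, the vesicular glutamate transporter of these neurons, had a mean of 471 CPM in the members and Calb1, the calcium-binding protein calbindin, 45.4 CPM, whereas Dsp, the desmosomal protein desmoplakin that marks dentate granule cells in mice, was at 2.43 CPM and had no UMI in the naïve rat. Genes of immature granule neurons were sparse, with Dcx, a microtubule-binding protein of young neurons, at 22.1 CPM. RNA of other cell types was present in every library. The 7 oligodendrocyte markers summed to 529, 606, 492 and 352 CPM in the members, led by St18, and to 682, 1021, 653 and 545 CPM over all nuclei. The 7 astrocyte markers summed to 1398, 1865, 1448 and 1513 CPM, led by the bicarbonate transporter gene Slc4a4, beside 1564, 1678, 1834 and 2117 CPM over all nuclei, so that the members stood above all nuclei in TBI rat 2. The 7 microglial markers summed to 55.4, 70.5, 36.3 and 54.8 CPM, led by Inpp5d, beside 103, 164, 72.2 and 103 CPM over all nuclei. The 7 markers of GABAergic neurons summed to 104, 33.2, 135 and 23.8 CPM, led by Erbb4, beside 261, 294, 302 and 214 CPM. None of the markers in these 5 lists was at 0 over the members. The 7 markers of hippocampal CA neurons and mossy cells summed to 143, 79.0, 117 and 111 CPM in the members, led by Rspo2. This sum was above that of the other granule types in every rat (117, 78.0, 114 and 65.0 CPM). The gap was small in TBI rat 2 and the sham rat. Over all nuclei the sum was 167, 175, 167 and 124 CPM, above the members in every rat. The share of such cells among the members was not tested.

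**Figure D1:**
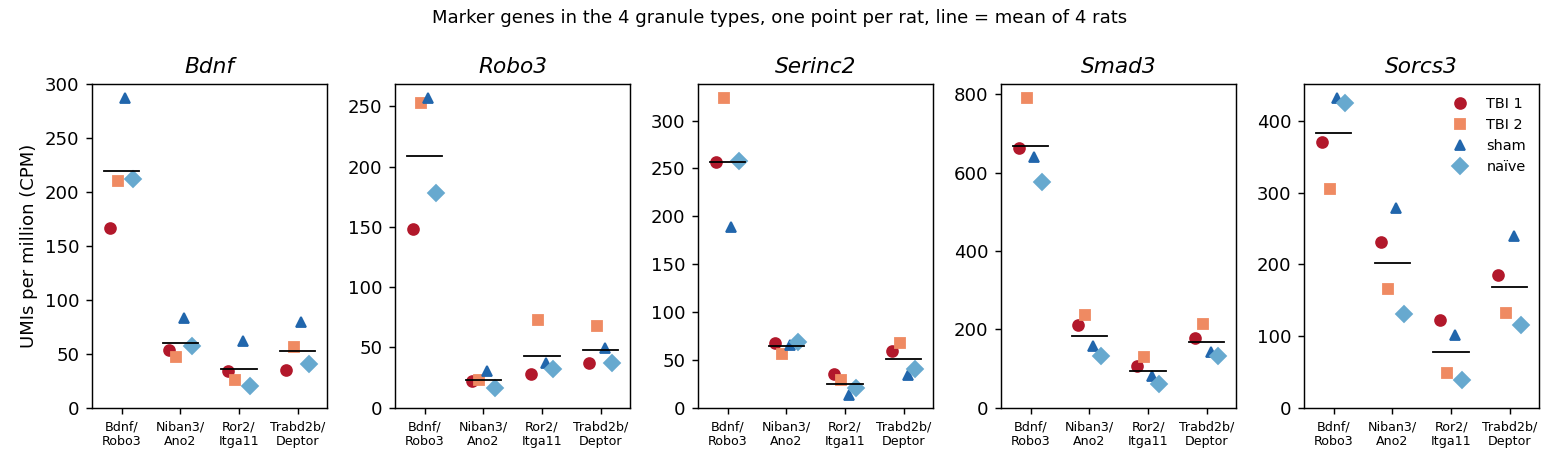
Normalized UMI counts (CPM, vertical axes, each from 0) of the 4 genes whose sum chose the members and of Sorcs3, in the Bdnf and Robo3 type and the 3 other granule types. Each point is 1 rat and each line the mean of 4 rats. For Sorcs3 the means were 383 CPM in the members and 202, 78.1 and 168 CPM in the others. The rule did not use Sorcs3, but it was noted for this type beforehand from these same data and is no independent check.

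Among the genes of the rule, Bdnf stood at 166, 210, 287 and 212 CPM in the members, and at 42.6, 45.0, 74.6 and 39.4 CPM in the other 3 types pooled. Robo3 was at 148, 253, 257 and 178 CPM, with 28.3, 57.6, 38.7 and 29.5 CPM in the others. Serinc2 was at 257, 323, 189 and 258 CPM, against 56.7, 53.5, 37.9 and 42.8 CPM. Smad3 was at 663, 791, 640 and 577 CPM, against 175, 195, 126 and 110 CPM. These differences were set by the choice of members and are given as a description, with no test. TBI rat 1 was the lowest of the 4 in Bdnf and Robo3, and the sham rat was the highest in both and the lowest in Serinc2.

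The members differed in which of the 4 genes they carried. Smad3 gave 53.7%, 50.2%, 46.6% and 47.1% of the UMIs in the sum, Serinc2 20.8%, 20.5%, 13.8% and 21.05%, Bdnf 13.5%, 13.3%, 20.9% and 17.3%, and Robo3 11.98%, 16.0%, 18.7% and 14.5%. Members with 2 of the 4 genes were the most frequent (47.3%, 48.3%, 52.4% and 50.2%), while 21.3%, 26.4%, 20.7% and 17.8% carried 1 gene alone and 5.79%, 3.00%, 3.25% and 5.98% carried all 4. At least 1 Bdnf UMI was found in 40.0%, 34.9%, 47.9% and 45.0% of members. In nuclei with at least 4 UMIs of oligodendrocyte marker genes, Mog, Mag and Mobp among them, and none of Prox1, which should lack it, the share was 6.74%, 7.84%, 13.5% and 5.28%, at a median depth of 1072, 761, 1176 and 1210 UMIs, below the depth of the members. Scaled to depth, Bdnf in these oligodendrocyte nuclei was at 58.4, 82.6, 89.5 and 29.4 CPM. That was above the other granule types in all but the naïve rat, but the rule itself holds Bdnf down in those types. Over all granule nuclei, whose choice did not use Bdnf, it was at 84.5, 98.1, 142 and 79.5 CPM, above the oligodendrocyte nuclei in every rat.

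Nuclei on either side of the threshold differed by an amount that depended on the rat. Members with a sum of exactly 2 UMIs had Sorcs3 at 278, 199, 366.2 and 329 CPM, and granule nuclei with a sum of 1 UMI, just outside, had 185, 146, 262 and 131 CPM. Granule nuclei with a sum of 2 or more that did not exceed the other marker sets, 765, 496, 470 and 756 nuclei, had Sorcs3 at 255, 163, 317 and 171 CPM. Sorcs3 was higher still in members with a sum of 5 UMIs, at 472, 413, 545 and 540 CPM, and at 6 or more it was at 423, 350, 546 and 472 CPM, lower again in all but the sham rat. In the naïve rat the step from a sum of 1 to a sum of 2 was the largest in Sorcs3, and Gabrg3 went from 188 to 70.6 CPM across it, against 273 to 213 CPM in TBI rat 1. Among the members depth rose with the sum: the median was 2261, 1730, 1991 and 2534 UMIs at a sum of 2 and 2895, 2258, 2494 and 3118 UMIs at a sum of 5. Across the threshold depth ran the other way, with 2451, 1782, 2061.5 and 2855 UMIs at a sum of 1. The part of depth in these differences was not tested.

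**Figure D2:**
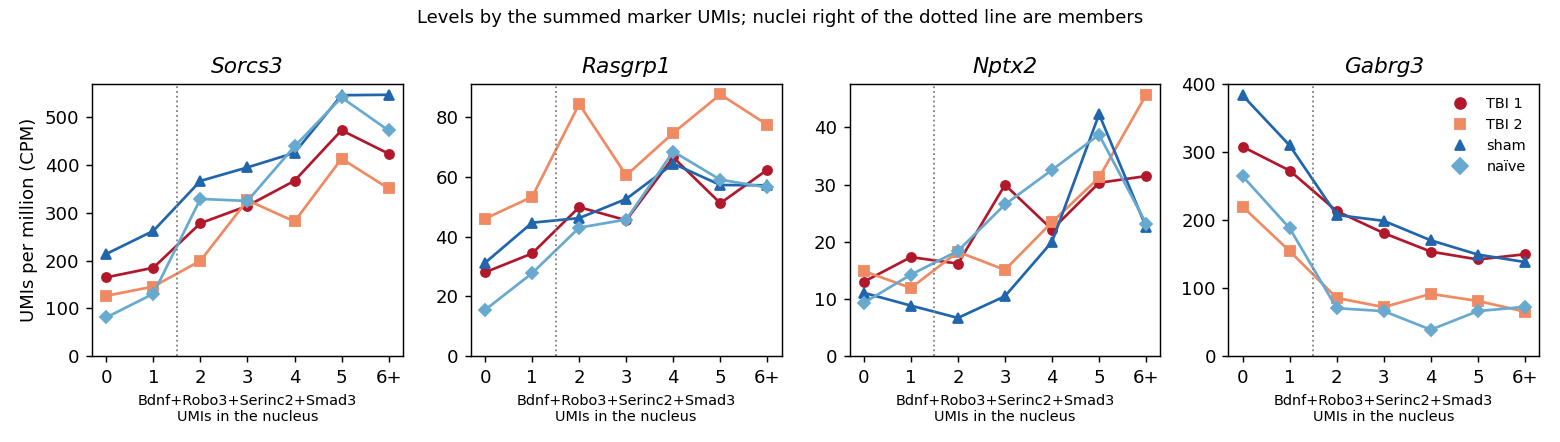
CPM (vertical axes, from 0) of Sorcs3, Rasgrp1, Nptx2 and Gabrg3 in granule nuclei, by the number of Bdnf, Robo3, Serinc2 and Smad3 UMIs in the nucleus (horizontal axis), with 1 line per rat. Points at 0 and 1 are nuclei outside the rule and points from 2 are members; Sorcs3 was lowest at a sum of 0 and Gabrg3 highest there in every rat.

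Beside the other 3 granule types, the members had more RNA of Ccn4, Sorcs3, Penk and Nptx2 and less of Klhl14, Gabrg3, Chrm5 and Hrh3. These are descriptions over 4 rats, with no test, since genes of nuclei picked by marker genes are no independent measure. Of 8943 genes with 10 CPM or more in either class, genes of the rule left out, 1071 (12%) were higher in the members of all 4 rats and 1597 (17.9%) were lower in all 4. Differences were small for most genes, with a median log2 ratio of -0.02 and the 5th and 95th percentiles at -0.31 and 0.23. The mean reached 1 or more for 10 genes and -1 or less for 17. A gene passed where either class reached 10 CPM, so some passed only through the class where they are high. These counts are fixed in part by the rule, and nothing is read from them for single genes.

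Sorcs3 was among the genes that stood apart most. It was at 371, 305, 433 and 425 CPM in the members and at 189, 117, 206 and 96.3 CPM in the other 3 types, a mean log2 ratio of 1.39 ± 0.52 (SD, n = 4 rats), higher in 4 of 4 rats. The mean log2 ratio was 0.97 against the Niban3 and Ano2 type, 2.43 against the Ror2 and Itga11 type and 1.23 against the Trabd2b and Deptor type. In the oligodendrocyte nuclei without Prox1 described above, Sorcs3 was at 158, 137, 179 and 120 CPM. That was above the other 3 granule types in TBI rat 2 and the naïve rat. Over all nuclei kept Sorcs3 was at 271, 230, 323 and 209 CPM, and over all granule nuclei at 251, 191, 307 and 187 CPM. Ccn4, which encodes a matricellular protein, had the highest mean ratio (1.48 ± 0.21), at 11.7, 13.2, 11.8 and 9.79 CPM in the members and 4.36, 4.40, 2.85 and 2.69 CPM in the others. Penk, the precursor of enkephalin peptides, was at 11.0, 9.16, 14.1 and 28.6 CPM in the members and 5.76, 4.40, 3.13 and 7.71 CPM in the others, a mean ratio of 1.34 ± 0.55. The naïve rat had the most Penk in both classes. Oprm1, the mu opioid receptor gene, was also higher in the members, at 22.3, 18.6, 29.9 and 36.5 CPM against 12.9, 15.1, 15.1 and 19.2 CPM (0.72 ± 0.30).

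Nptx2, a secreted pentraxin that clusters AMPA receptors at synapses and is induced by activity, was at 26.9, 27.8, 16.4 and 26.7 CPM in the members and 13.4, 12.3, 7.12 and 11.0 CPM in the others, a mean log2 ratio of 1.09 ± 0.11. Rasgrp1, an exchange factor that activates Ras, was at 55.9, 76.3, 54.0 and 54.5 CPM against 31.1, 41.8, 26.2 and 17.8 CPM (1.06 ± 0.34). Grasp, a scaffold protein that binds metabotropic glutamate receptors, had a mean ratio of 1.003 ± 0.34, and Sv2c, a synaptic vesicle glycoprotein, one of 0.91 ± 0.31. Plk5, a polo-like kinase gene, had the narrowest spread over rats among the 20 genes highest and the 12 lowest by mean ratio, at 138, 99.0, 93.9 and 93.4 CPM against 78.0, 55.4, 52.4 and 54.7 CPM (0.81 ± 0.03). Against the Trabd2b and Deptor type alone its mean ratio was 0.30. Cntnap5b, of the contactin-associated adhesion proteins, was at 652, 1172, 999 and 635 CPM against 430, 703, 569 and 338 CPM (0.76 ± 0.13, and 0.31 against the Trabd2b and Deptor type). The other genes of the 20 with the highest mean ratio, between 0.68 and 1.28, were Exph5, Col18a1, Prss35, Slc4a11, Tmem140, Atp1a4, Phf21b, Mapk4, Ddr2 and Cst6. Of the 20, 17 were higher in 4 of 4 rats than each single type; beside the Trabd2b and Deptor type Oprm1 was higher in 3 rats, and Ddr2 (0.19) and Cst6 (0.32) in 2. Among these, Col18a1 encodes a basement membrane collagen, Ddr2 a collagen receptor and Exph5 an effector of a Rab protein.

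The gene with the lowest ratio was Klhl14, of the kelch-like family, at 3.97, 7.46, 17.9 and 6.88 CPM in the members and 18.9, 21.7, 58.9 and 24.8 CPM in the others, a mean log2 ratio of -1.70 ± 0.24. Its mean ratio was -1.76 against the Niban3 and Ano2 type and -2.39 against the Ror2 and Itga11 type but -0.39 against the Trabd2b and Deptor type, where 1 rat went the other way. Gabrg3, a gamma subunit of the GABA-A receptor, was at 167, 77.6, 181 and 64.8 CPM against 284, 181, 396 and 237 CPM (-1.24 ± 0.46). For it the mean ratio was -1.46 against the Niban3 and Ano2 type, -1.63 against the Ror2 and Itga11 type and -0.50 against the Trabd2b and Deptor type. Chrm5, a muscarinic acetylcholine receptor, and Hrh3, a histamine receptor, were at means of 6.93 and 5.73 CPM in the members and of 18.3 and 14.4 CPM in the others. Adamts17, a secreted metalloprotease, was at 68.0, 70.9, 69.6 and 34.9 CPM against 131, 125, 145 and 114 CPM (-1.12 ± 0.39). The remaining genes of the 12 lowest were Fanci, Rab3b, Bace2, Mdga1, Prom1, Syt10 and Sema3e, with mean ratios from -1.20 to -1.04. Only 5 of the 12, Gabrg3, Hrh3, Fanci, Adamts17 and Mdga1, were higher in no rat beside any single type, and against the Trabd2b and Deptor type the mean ratio of the 12 ran from -1.06 to 0.22, with -0.36 for Hrh3, -0.37 for Mdga1 and -0.26 for Syt10. For Rab3b and Bace2 it changed sign: their mean ratios were -2.27 and -2.14 against the Niban3 and Ano2 type, -0.16 and -0.58 against the Ror2 and Itga11 type and 0.20 and 0.22 against the Trabd2b and Deptor type.

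**Figure D3:**
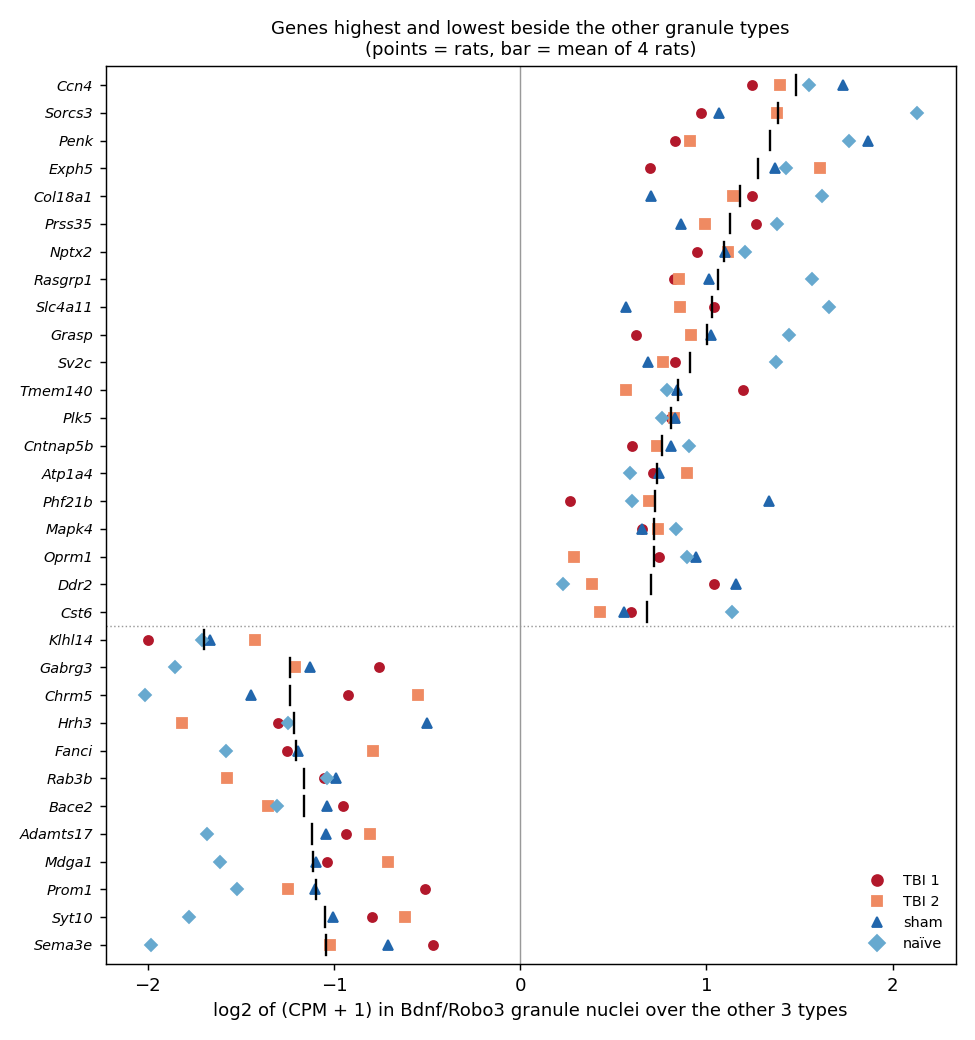
Log2 ratio of CPM + 1 in the members over the other 3 granule types pooled (horizontal axis) for the 20 genes with the highest and the 12 with the lowest mean ratio that had 1 direction in 4 rats. Points are rats and bars the mean of 4 rats; Ccn4 leads at 1.48 and Klhl14 is lowest at -1.70.

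In the neurotrophin pathway the members had more of 2 sorting receptors and no more of the Bdnf receptor. Of 17 listed genes measured, 14 had 10 CPM or more in either class, 3 of them were higher and 8 lower in all 4 rats, beside 12% and 17.9% of all genes, and the median log2 ratio was -0.06. The 3 higher genes were Sorcs3, Sorcs1 (114, 99.7, 103 and 122 CPM against 76.1, 80.5, 69.2 and 75.4 CPM) and Pcsk2, a prohormone convertase, at a mean ratio of 0.30 ± 0.11. Ntrk2, the TrkB receptor gene, had means of 665 CPM in the members and 683 CPM in the others (-0.04 ± 0.11), and Ntf3, the related ligand neurotrophin, 304 and 308 CPM (-0.01 ± 0.07). Ntrk3, the receptor of that ligand, was lower at 1915 against 2082 CPM (-0.12 ± 0.01), and so was the receptor gene Sorcs2 at 39.9 against 61.8 CPM (-0.64 ± 0.33).

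Around Smad3, the TGF-beta and activin list held 23 genes, of which 19 passed 10 CPM, 3 were higher and 7 lower in all 4 rats (median log2 ratio -0.09). Inhba, which encodes the activin A ligand subunit and is induced by activity, was at 8.17, 12.5, 10.2 and 18.8 CPM in the members and 6.63, 8.81, 4.84 and 10.3 CPM in the others (0.62 ± 0.31). Inhba passed 10 CPM only through the members, where it is high, so the counts of this list are not set against those of all genes. The type I receptor gene Acvr1c was higher by 0.61 ± 0.24, while Acvr2a, an activin type II receptor gene, was lower at 166, 130, 138 and 159 CPM against 248, 223, 253 and 316 CPM (-0.80 ± 0.18). The inhibitor gene Smad7 was lower by a mean log2 ratio of -0.37 ± 0.19, and Smad4, the partner of Smad3, was at 38.2 and 37.2 CPM (0.03 ± 0.32). Of 16 listed genes of the Slit, Robo and netrin pathways, 14 passed, 2 were higher and 6 lower, beside 12% and 17.9% of all genes (median -0.07). The 2 higher genes were the receptors Robo2 (894, 1069, 1433 and 898 CPM against 764, 881, 1159 and 724 CPM) and Unc5d. Robo1 was lower at 152 against 180 CPM (-0.27 ± 0.19).

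Genes that neurons transcribe on activity were also counted as a list, with Bdnf itself, a gene of the rule that is transcribed on activity, left out. Of 20 listed, 8 had 10 CPM or more, 7 of these were higher in all 4 rats and none lower in all 4. Penk and Inhba passed 10 CPM only through the members, where they are high, so this count is not set against that of all genes. The 7 were Nptx2, Penk, Inhba, Ptgs2 (prostaglandin synthase), Scg2 (secretogranin II), Homer1 (a postsynaptic scaffold) and Nr4a3 (an orphan nuclear receptor). Nr4a3 was at 43.9, 57.3, 80.9 and 26.2 CPM against 38.6, 35.9, 53.5 and 10.4 CPM (0.67 ± 0.44), and Homer1 at 157, 188, 209 and 139 CPM against 140, 160, 179 and 124 CPM (0.19 ± 0.04). The immediate early genes Fos, Arc and Egr1 were sparse, with means of 0.69, 2.41 and 2.73 CPM in the members. The list summed to 418, 510, 485 and 537 CPM in the members, 337, 407, 381 and 348 CPM in the other 3 types and 408, 555, 466 and 474 CPM over all nuclei kept. In members without a Bdnf UMI it summed to 367, 354, 407 and 454 CPM, which was below the other 3 types in TBI rat 2 and above them by little in TBI rat 1 and the sham rat.

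Within the members, nuclei with a Bdnf UMI had more RNA of the activity list than nuclei without one, in 4 of 4 rats. The list summed to 477, 790, 561 and 618 CPM in the 532, 420, 737 and 482 members with Bdnf and to the lower values above in the 797, 782, 802 and 589 without. With every nucleus thinned to 1500 UMIs the sums were 477, 813, 548 and 678 CPM with Bdnf and 364, 375, 402 and 468 CPM without. The difference was widest in TBI rat 2. Nr4a3 was at 56.3, 131, 102 and 34.6 CPM with Bdnf and 32.9, 15.9, 58.6 and 17.6 CPM without, and Homer1 at 186, 297, 236 and 165 CPM with and 131, 127, 180 and 113 CPM without. Nr4a1, a nuclear receptor induced early by activity, was at 12.2, 22.7, 12.03 and 2.10 CPM with and 2.09, 2.11, 2.09 and 0.53 CPM without, from 78 and 14 UMIs in all. All 10 UMIs of Npas4, a transcription factor induced by neuronal activity, lay in members with Bdnf. Ntrk2 was also higher with Bdnf, by a mean log2 ratio of 0.28 ± 0.09 (SD, n = 4 rats). Rasgrp1 (-0.02 ± 0.08) and Calb1 (0.01 ± 0.11) had about the same mean in both. A member that lacks 1 of the 4 genes had to carry more of the others to pass the rule, so the split is given with no test. By the same split on Smad3, the list summed to 405, 424, 463 and 493 CPM in members with Smad3 and 560, 989, 602 and 833 CPM in those without.

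**Figure D4:**
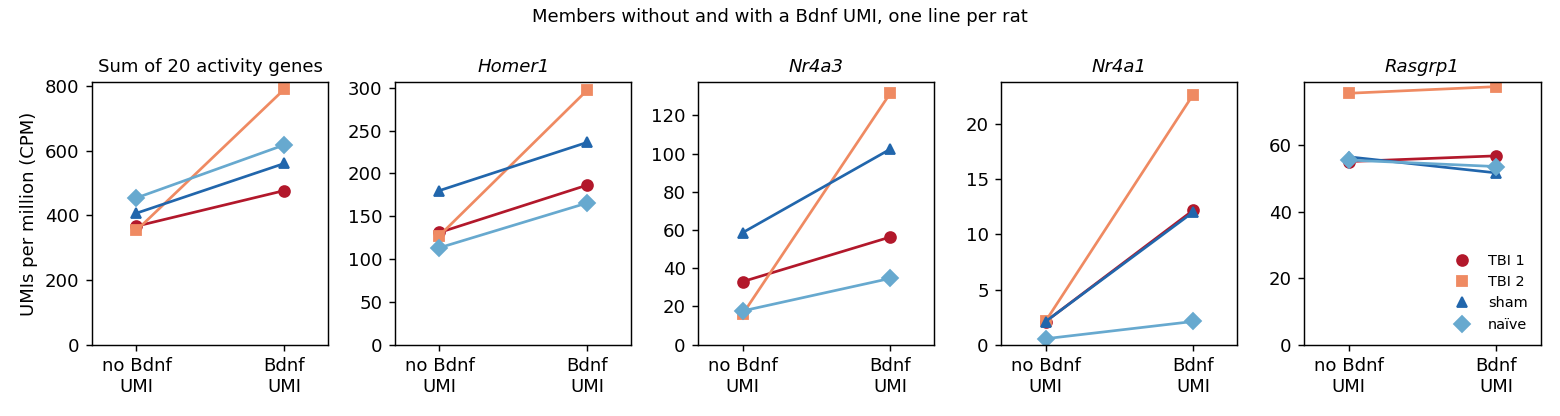
CPM (vertical axes, from 0) of the 20 activity genes together and of Homer1, Nr4a3, Nr4a1 and Rasgrp1, in members without and with a Bdnf UMI, with 1 line per rat. The sum of the list was higher with Bdnf in all 4 rats (477, 790, 561 and 618 CPM) than without (367, 354, 407 and 454 CPM), while Rasgrp1 was about level.

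Beside Gabrg3, Chrm5 and Hrh3, the listed receptors and channels had mean log2 ratios nearer to 0. Of 12 GABA-A subunits, 2 were higher and 3 lower in all 4 rats, beside 12% and 17.9% of all genes (median log2 ratio 0.01), Gabra5 among the lower at 73.1, 64.8, 74.2 and 46.8 CPM against 92.2, 92.2, 112 and 81.0 CPM. Of 20 glutamate receptor genes with 10 CPM or more, 11 were higher and 5 lower in all 4 rats, beside those shares, with a median of 0.06. Grm8 (0.38 ± 0.09) and Grm3 (0.37 ± 0.14), both metabotropic receptors, and Grik2 (0.25 ± 0.06), a kainate receptor subunit, were higher, and the AMPA receptor subunit gene Gria1 was lower (-0.22 ± 0.08). Grm3 did not differ from the Trabd2b and Deptor type by its mean ratio, which was 0.00. Of 28 ion channel genes, 4 were higher and 6 lower, close to the shares of all genes (median -0.02), with Trpc6, a cation channel, the most apart of the higher ones at 319, 360, 432 and 385 CPM against 238, 285, 306 and 219 CPM (0.52 ± 0.21). Of 5 genes known to mark ventral granule cells in mice, 4 passed 10 CPM and 2 were lower, Cpne7 (-0.99 ± 0.20) and Trhr (-0.94 ± 0.44). Their mean ratios were -1.95 and -1.88 against the Niban3 and Ano2 type, -0.39 and 0.14 against the Ror2 and Itga11 type and 0.28 and 0.05 against the Trabd2b and Deptor type. Trhr, at 8.61, 7.80, 14.1 and 7.41 CPM in the members, passed 10 CPM only through the other types, where it is high. The count of this list is therefore not set against that of all genes. Only 1 of 3 dorsal marker genes measured, Spata13, passed 10 CPM, and it was lower in the members (-0.41 ± 0.27).

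Members made up 26.1%, 25.6%, 28.7% and 21.2% of the granule nuclei. Both TBI rats lay between the controls, so the groups overlapped, and the difference of the means was 0.90 percentage points (two-sided exact permutation test over rats, p = 1, where a design of 2 and 2 cannot go below 0.3333). With each nucleus thinned to 1500 UMIs before the rule was applied, which left 3200, 2944, 3419 and 3380 granule nuclei, the shares were 18.8%, 25.8%, 22.5% and 14.1% (exact permutation test, p = 0.667). Leaving out the nuclei under 1500 UMIs with no thinning gave 28.8%, 30.4%, 32.1% and 22.1%. TBI rat 2, the shallowest library, thus ranked below the sham rat and TBI rat 1 in all granule nuclei, above TBI rat 1 once shallow nuclei were left out, and first after thinning as well. Among the nuclei assigned to any of the 4 types, members made up 42.5%, 47.0%, 53.1% and 31.6%. A share does not tell more members from more of the marker RNA per nucleus.

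TBI was compared with control in the members by edgeR's quasi-likelihood test on UMI sums per rat, 2 rats against 2. No gene of 11747 passed an FDR of 0.05 (0%), 345 (2.94%) had an unadjusted p under 0.05, 244 of them higher and 101 lower after TBI, and DESeq2 on the same sums called 2. The levels of Bdnf, Robo3, Serinc2 and Smad3 within the members are bound by the rule, so their values here are a description. Bdnf had a Log2FC of -0.47 ± 0.21 (SE), from 166 and 210 CPM in the TBI rats and 287 and 212 CPM in the controls; both TBI rats lay below both controls, TBI rat 2 by little, while over all granule nuclei the groups overlapped. Sorcs3 had a Log2FC of -0.42 ± 0.16, with an unadjusted p of 0.0299 and an adjusted p of 0.991 by edgeR, from 371 and 305 CPM against 433 and 425 CPM, and did not overlap between the groups either. Groups that do not overlap were common, in 33.4% of all genes tested. Stored zeros made up 1.49%, 24.2%, 8.14% and 7.12% of the Sorcs3 entries and 0.56%, 18.4%, 5.03% and 7.49% of the Bdnf entries in the members; with each counted as 1 UMI the Log2FC was -0.41 for Sorcs3 and -0.51 for Bdnf. Over all alternatives and with each rat left out, Sorcs3 lay between -0.53 and -0.35, never past the threshold, and Bdnf between -0.73 and -0.17. The Log2FC was -0.18 ± 0.29 for Robo3, 0.31 ± 0.22 for Serinc2, 0.19 ± 0.18 for Smad3 and 0.03 ± 0.22 for Prox1, and with single rats left out Robo3, Smad3 and Prox1 changed sign and Serinc2 ran from 0.05 without TBI rat 2 to 0.56 without the naïve rat.

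The 10 genes with the smallest p are given as values, since none passed. Nsmf, which encodes a protein that carries NMDA receptor signals to the nucleus, was at 143 and 161 CPM in the TBI rats and 80.9 and 74.9 CPM in the controls (Log2FC 0.89 ± 0.17, SE), with stored zeros in 2.62%, 33.0%, 27.9% and 34.2% of its entries and a Log2FC of 0.59 when these were counted as 1 UMI and of 0.53 without members that held 2 or more glial or vascular UMIs, a limit that kept 141 of 1329, 424 of 1202, 257 of 1539 and 286 of 1071 members. Ddn, the postsynaptic protein dendrin, was at 57.8 and 57.6 CPM against 27.1 and 31.2 CPM (0.91 ± 0.21), and its Log2FC was 0.25 without the members that held glial or vascular UMIs. Chd3, a chromatin remodeler, was at 117 and 106 CPM against 66.0 and 55.3 CPM (0.81 ± 0.18), and Col11a2, a fibrillar collagen chain, at 49.9 and 48.8 CPM against 20.5 and 24.3 CPM (1.07 ± 0.23). Akap8l, a nuclear anchoring protein gene, was at 169 and 171 CPM against 250 and 358 CPM (-0.91 ± 0.21). Ebf1, a transcription factor, was at 14.6 and 26.8 CPM against 6.14 and 3.18 CPM (2.07 ± 0.50), with stored zeros in 10.3%, 55.9%, 77.8% and 50% of entries and a Log2FC of 1.35 with these as 1 UMI. The groups did not overlap in any of the 10, as their choice by the smallest p makes likely, and every adjusted p was 0.991 by edgeR. The others were AABR07057997.1 (0.94 ± 0.19, or 0.61 without the members that held glial or vascular UMIs), LOC102553088 (-1.49 ± 0.32), LOC100360841 and Mag. LOC100360841, at 46.6, 10.5, 2.56 and 1.85 CPM, had stored zeros in 10.1%, 90.6%, 92.1% and 95.9% of its entries and a Log2FC of 3.596, or 0.80 with these as 1 UMI, and was with Rplp1, a ribosomal protein gene, 1 of the 2 that DESeq2 called.

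No myelin gene passed the adjusted threshold in the members. Mag, a myelin glycoprotein of oligodendrocytes, was at 16.3 and 15.3 CPM in the TBI rats and 3.84 and 4.23 CPM in the controls (Log2FC 1.89 ± 0.40, or 1.29 with stored zeros as 1 UMI), and 5 of the 7 oligodendrocyte markers, Mag, Mal, Mbp and Mog among them, had an unadjusted p under 0.05 with higher values after TBI, beside 2.94% of all genes in either direction. Mobp was at 21.6 and 42.0 against 21.2 and 8.997 CPM. St18, which led the list in abundance, went the other way at 184 and 187 against 247 and 207 CPM. The whole list summed to 529 and 606 CPM against 492 and 352 CPM in the members, and to 682 and 1021 against 653 and 545 CPM over all nuclei, and its part in the results of the members was not tested. In the granule, neurotrophin, activity, glutamate receptor, GABA-A and ion channel lists no gene was called. The activity list had 15 genes tested, of which Penk (11.0 and 9.16 against 14.1 and 28.6 CPM) and Pcsk1, a prohormone convertase (7.06 and 8.14 against 10.2 and 19.8 CPM), had an unadjusted p under 0.05, both lower after TBI. The median Log2FC of that list was -0.15, beside 0.01 over all genes tested. In the neurotrophin list Sorcs2 (60.9 and 38.3 against 32.2 and 28.0 CPM) was higher after TBI and Sorcs3 and Pcsk1 lower at an unadjusted p under 0.05, and in the TGF-beta list none of 21 genes reached it.

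**Figure D5:**
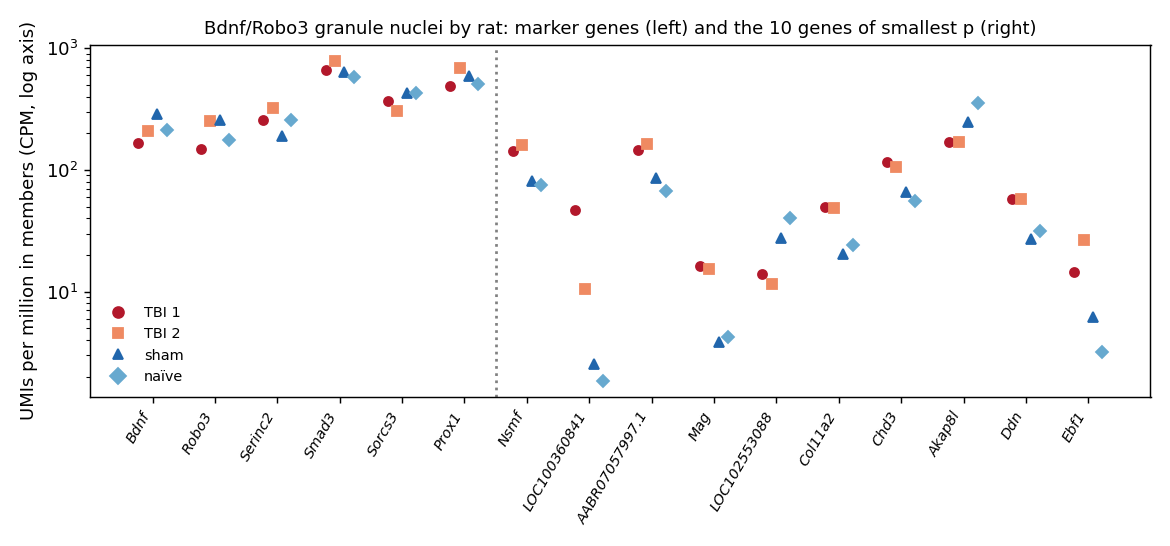
CPM in the members (vertical axis, log scale) of the marker genes, left of the dotted line, and of the 10 genes with the smallest p for TBI against control, right of it. Points are the 2 TBI rats, the sham rat and the naïve rat; no gene passed an FDR of 0.05, and Nsmf, first by p, was at 143 and 161 CPM after TBI and 80.9 and 74.9 CPM in the controls.

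The TBI difference in the members was then set against that in the other 3 granule types in 1 edgeR model with the rat as a block. Of 12270 genes 4 (0.0326%) differed at an FDR of 0.05. The log2 ratio of members to other types was 0.37 and 0.29 in the TBI rats and -0.10 and -0.43 in the controls for Sfxn5, a mitochondrial transporter gene, an interaction of 0.61 ± 0.11 (SE) with an adjusted p of 0.00888 by edgeR. For Arap2, which encodes a GTPase-activating protein, it was 0.29 and 0.38 against -0.05 and -0.60 (0.67 ± 0.14, adjusted p of 0.0325 by edgeR). For Apoe, the lipid carrier that astrocytes make in quantity, it was 0.32 and 0.23 against 0.23 and -0.41 (0.43 ± 0.09, adjusted p of 0.0199 by edgeR), and the sham rat was level with TBI rat 2. Stored zeros made up 6.79%, 83.5%, 64.3% and 92.9% of the Apoe entries in the members, and with these as 1 UMI Apoe missed the threshold (0.33, adjusted p of 0.0664 by edgeR). The remaining call, Smad3 (-0.42 ± 0.08, from 1.92 and 2.01 against 2.33 and 2.38), is a description, since its ratio is bound by the rule. The next gene, Kcnh8, a potassium channel gene, missed the threshold (-1.02 ± 0.22, adjusted p of 0.0575 by edgeR). DESeq2 called no gene, with 27 at an unadjusted p under 0.05 beside 687 by edgeR. Without TBI rat 1 or TBI rat 2 edgeR called no gene, and without the naïve rat none of these 4. The astrocyte markers summed to 1646, 2157, 1894 and 2262 CPM in the other 3 types and to 1398, 1865, 1448 and 1513 CPM in the members, the gap being widest in the naïve rat, and their part in the calls of Apoe, Sfxn5 and Arap2 was not tested.

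Over all granule nuclei, whose choice did not use the 4 marker genes, no gene of 14085 was called by edgeR (0%), 433 had an unadjusted p under 0.05, and DESeq2 called 6. Serinc2 was at 122 and 140 CPM after TBI and 86.6 and 93.2 CPM in the controls, with no overlap, as in 33.1% of all genes tested (Log2FC 0.47 ± 0.16, unadjusted p of 0.0188, adjusted p of 0.998 by edgeR). Smad3 was at 328 and 372 against 300 and 224 CPM, also with no overlap (0.34 ± 0.18), and ran from 0.15 without the naïve rat to 0.55 without the sham rat. Bdnf was at 84.5 and 98.1 against 142 and 79.5 CPM (-0.35 ± 0.26), Robo3 at 65.7 and 115 against 112 and 64.3 CPM (-0.04 ± 0.33) and Sorcs3 at 251 and 191 against 307 and 187 CPM (-0.24 ± 0.24), and these groups overlapped.

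In bulk dentate gyrus, limma on the deposited log2 CPM of 14166 genes called no gene between 3 TBI and 3 sham rats (0%), with 1340 at an unadjusted p under 0.05. The study itself ran DESeq2 on counts of these 6 rats and reported differentially expressed genes, nearly all higher after TBI and complement genes among them. The lack of calls here thus belongs to this test and is no sign that the tissue did not respond. In such tissue, fewer cells of a type and less RNA per cell cannot be told apart. Bdnf was at 5.55, 5.40 and 5.46 log2 CPM for sham and 5.28, 5.44 and 5.36 for TBI, and the groups overlapped (-0.11 ± 0.10, SE). Sorcs3 was at 5.499, 5.45 and 5.53 for sham and 5.41, 5.15 and 5.48 for TBI (-0.15 ± 0.12); the highest TBI value lay above the lowest sham value. Prox1 itself ranged from 4.001 to 6.72 log2 CPM over the 6 rats, with sham values of 6.72, 4.68 and 4.001, and Smad3 ran from 4.41 to 6.78 and Robo3 from 3.28 to 5.51 with their highest value in the same sham rat. Their differences were 0.69 ± 0.62 for Smad3, which ran from 0.23 without sham rat 3 to 1.42 without sham rat 1, 0.00 ± 0.52 for Robo3, 0.24 ± 0.41 for Serinc2 and 0.35 ± 0.69 for Prox1. Surgery fell in spring for 2 sham rats and 1 TBI rat and in autumn for the other rats. With the period as a term the differences were -0.13 for Bdnf, -0.14 for Sorcs3 and 1.06 for Smad3. They were 0.32 for Robo3, 0.57 for Serinc2 and 0.83 for Prox1, and none of the 6 was past the threshold.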

How the data were processed

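Nuclei of each rat were isolated individually and then sequenced on the 10x platform. The authors ran Cell Ranger on Rnor_6.0 over exons and introns and deposited raw UMI counts per gene and nucleus; 55863 barcodes were read, of which the study's stated filters left 55124 here and the 500 UMI and 5% mitochondrial limits used for the rule left 55401. For bulk RNA-seq the authors deposited kallisto estimated counts per transcript, not used here because none of 31715 transcript names matched the reference table, and log2 CPM of 14166 genes.

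UMIs were summed per rat over members and tested with edgeR 4.0.16 (quasi-likelihood, TMM, filterByExpr, Benjamini-Hochberg), with DESeq2 1.42.0 as an alternative; bulk used limma 3.58.1. Calls had an FDR under 0.05, and no edgeR call named here reached an absolute Log2FC of 1.5. Log2 ratios added 1 CPM. Replicate rats are separate animals. The Niban3 and Ano2, Ror2 and Itga11, and Trabd2b and Deptor types had at least 2 UMIs of their own set and more than in the others. Thinning drew 1500 UMIs per nucleus and left out 270 shallower members. Scripts were tested on simulated data. Alternatives covered tool, normalization, low-count filter, gate, depth, the CPM added to ratios, stored zeros and each rat left out. Those on stored zeros, single types, shallow nuclei and the surgery period were chosen after seeing the data.

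Named genes were those of the rule, the 20 highest and 12 lowest mean log2 ratios with 1 direction in 4 rats, and the 10 (interaction: 5) smallest p; genes of the pathway and marker lists were named from those lists. The members and lists were chosen with earlier results of these data known. Grm4, Gsg1l, Kcnd2, Pecam1 and Sorl1 were not analysed here. Values of some single genes of the lists are not reported here.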

Additional observations from a re-analysis of the deposited data

Results flagged for a closer look

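The TBI difference in the members and that in the other 3 granule types differed by a test of the difference itself for 4 genes, by 0.61 for Sfxn5, -0.42 for Smad3, 0.43 for Apoe and 0.67 for Arap2 on the log2 scale (edgeR, interaction with the rat as a block). Smad3 is a gene of the rule, which binds its ratio of members to other types, so its value is a description and not an independent call. Against the Trabd2b and Deptor type alone the differences were 0.86 for Sfxn5, -0.28 for Smad3, 0.66 for Apoe and 0.81 for Arap2, against the Niban3 and Ano2 type alone 0.31, -0.43, 0.36 and 0.71, and against the Ror2 and Itga11 type alone 0.63, -0.54, 0.12 and 0.49. Without the naïve rat the differences were 0.44 for Sfxn5, -0.37 for Smad3, 0.05 for Apoe and 0.39 for Arap2, and without the sham rat 0.73, -0.47, 0.65 and 0.90. All 4 genes kept their direction under every alternative run, and the part of the mix of the other 3 types, which differed between rats, was not tested.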

How the results depend on the processing

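The members' own TBI comparison gave 0 calls, and the alternatives with calls were DESeq2 (2), no low-count filter (46) and single rats left out (0 to 35 calls); 35 came without TBI rat 2 and 9 without TBI rat 1. All granule nuclei gave 6 calls with DESeq2, 89 without the filter and 0 to 34 with a rat left out, 9 without TBI rat 1 and 34 without TBI rat 2. The cause was not tested. For these lone-rat fits the single TBI rat was assumed to vary like the controls. A stricter gate, full filters, thinning, an FDR under 0.01, fewer glial UMIs or stored zeros as 1 UMI left 0 calls in the members.

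The interaction gave 4 calls, 0 with DESeq2, 2 with RLE size factors, 16 without the filter, 28 against the Trabd2b and Deptor type alone, 0 against each of the other types alone, and 0 to 74 with a rat left out (0 without either TBI rat, 74 without the sham rat, 1 without the naïve rat).

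The share of members differed by -2.85 percentage points without the naïve rat, the reverse of the 0.90 reported, and by 0.94 to 4.01 points under the other gates except 0.52 with stored zeros as 1 UMI and 0.17 over all nuclei kept; the leave-one-out range was -2.85 to 4.64. The Sorcs3 ratio was 2.43 against the Ror2 and Itga11 type alone. Rab3b and Bace2 reversed to 0.20 and 0.22 against the Trabd2b and Deptor type.

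With a rat left out, the members' Log2FC ranged from -0.70 to 0.19 for Robo3 (0.19 without TBI rat 1, 0.08 without the sham rat), from -0.019 to 0.34 for Smad3 (-0.019 without TBI rat 2) and from -0.32 to 0.29 for Prox1, which also reversed to -0.066 with stored zeros as 1 UMI in the sums, to -0.067 with these in the rule too and to -0.030 with at least 2 Prox1 UMIs. In all granule nuclei the ranges were -0.71 to 0.11 for Bdnf and -0.55 to 0.15 for Sorcs3 (both highest without the sham rat), -0.54 to 0.40 for Robo3 and -0.21 to 0.32 for Prox1. In bulk they were -0.49 to 0.63 for Robo3, -0.16 to 0.60 for Serinc2 and -0.21 to 1.15 for Prox1 (each lowest without sham rat 3), with 0 to 1 calls. With the replicate block in bulk 125 genes were called, none of the 6 marker genes; same-numbered rats correlated at 0.35, 0.17 and -0.03, so the numbers were not taken as a pairing. The edgeR test on bulk transcript counts was not run. The number of rats, 2 a group, limits what the tests on nuclei can call.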
